A study of Sus scrofa with 12 samples.

Results

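In pig ovary, 10 marker genes of blood-borne cells were followed, out of the 29884 genes in the table, taken as the rows with these symbols. No level entered the rule, although the set was put together with earlier results of these data known. They were *PTPRC*, which marks leukocytes in general, the macrophage and monocyte genes *CD68*, *CD163*, *CSF1R*, *MRC1* and *CD14*, and the T cell genes *CD3E*, *CD4*, *CD8A* and *CD2*. All 10 were found in the table and all 10 were above 0 in all 6 ovaries. The ovaries came from sows of small litter size (SLS, 8.48 ± 0.53 piglets per litter, ovaries ZD2, ZD3 and ZD12) and of large litter size (LLS, 16.19 ± 0.43, ovaries ZD5, ZD7 and ZD8). All sows were killed 4 days after their delivery number 4 and had lived on 1 commercial farm free of porcine reproductive and respiratory syndrome virus and of porcine circovirus, and the left ovary was taken. No strain, age or treatment was given for either group, and litter size was the only contrast. Total RNA without ribosomal RNA and small RNA were sequenced from each ovary, 1 library of each kind.

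Macrophages are among the most numerous leukocytes of the ovary. They enter the corpus luteum, the progesterone-making gland left by an ovulated follicle, and take up its dying cells when it regresses. T cells recognise antigen through a receptor joined to the CD3 chains, and T cells of the ovary are found mainly in the stroma, around vessels and in regressing corpora lutea. Every marker here is a surface or lysosomal protein of these cells. Its RNA level in bulk tissue depends on how many such cells are present and on how much of the RNA each holds. Levels are scaled to library size, so they depend on the RNA of all other cells too.

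One library stood apart before any marker was considered. The LLS ovary ZD8 held a summed 124 FPKM (fragments per kilobase of transcript, scaled to library size) of 7 luteal genes, among them *STAR*, *CYP11A1* and *HSD3B1*, against 9167 to 12191 FPKM in the other 5 ovaries. Its endothelial genes summed to 139 FPKM against 273 to 396, its theca genes to 415 against 9.31 to 74.4, and its oocyte genes to 122 against 6.27 to 22.4. Of the 8 endothelial genes 4 were lowest in ZD8, while *TEK*, *TIE1*, *ERG* and *EMCN* were inside the range of the other 5 ovaries. Defining markers of corpus luteum were thus low in ZD8, although its label is the same as that of ZD5 and ZD7. The gene libraries held 32272803 reads (ZD8) to 60903268 reads (ZD2) and the small RNA libraries 3537619 to 9854086 reads. ZD8 held the highest level of 52.4% of the 23564 genes above 0 and of 44.6% of the 12260 genes tested, and its median over the tested genes was 10.6 FPKM against 8.23 to 9.83 in the other 5. The difference between the groups is given with and without ZD8 for each member.

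The members differed widely in level. In mean FPKM over the 6 ovaries, which is per transcript length, *CD14* stood at 13.9 and *MRC1* at 13.8, followed by *CSF1R* at 10.3, *CD163* at 7.69, *PTPRC* at 3.21, *CD68* at 2.74, *CD2* at 2.36, *CD3E* at 1.25, *CD4* at 0.794 and *CD8A* at 0.193. Of the 5 macrophage genes 4 were therefore above *PTPRC*, and all 4 T cell genes were below it. Of the 9 pairs of neighbours in this order, 3 kept their order in all 6 ovaries, namely *CD163* above *PTPRC*, *CD2* above *CD3E* and *CD4* above *CD8A*. The other 6 pairs held their order in 3 to 5 of the 6 ovaries, so these neighbours were not separated beyond their spread. The low place of *CD8A* depended on its gene model, because FPKM was scaled to its longest annotated transcript of 7635 nt. With its shortest one, 2166 nt, the mean would be 0.681 FPKM, and in reads *CD4* was 1.0 to 3.08 times *CD8A*.

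**Figure D1:**
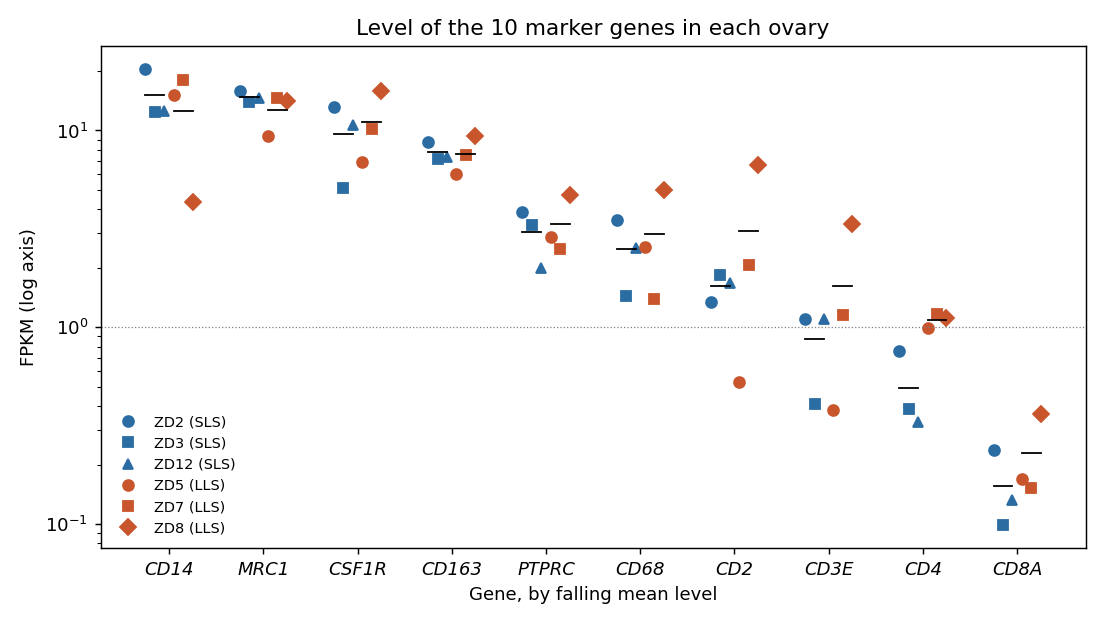
FPKM of the 10 marker genes on a log axis, 1 point per ovary (blue SLS, orange LLS), with short lines at the mean of each group of 3 and a dotted line at 1 FPKM. ZD8, the orange diamond, is highest for 7 genes and lowest for *CD14*, and *CD4* is the gene whose 2 groups do not overlap.

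*PTPRC* encodes CD45, the receptor tyrosine phosphatase that all nucleated blood cells carry (Sscrofa11.1 chr10:21482984-21601627, plus strand, 36 exons). In the SLS ovaries its level was 3.86 FPKM in ZD2, 3.31 in ZD3 and 2.01 in ZD12. In the LLS ovaries it was 2.88 FPKM in ZD5, 2.52 in ZD7 and 4.68 in ZD8. The highest ovary, ZD8 with 783 reads, and the lowest, ZD12 with 551 reads, differed 2.33-fold in FPKM, and the groups overlapped. LLS minus SLS was 0.10 on the log2(FPKM + 1) scale (SE 0.32, n = 3 and 3, 95% interval -0.64 to 0.84, limma adjusted p = 0.999), and -0.11 without ZD8. In bulk tissue, fewer leukocytes, less RNA per leukocyte and more RNA from other cells cannot be told apart in any of these values.

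*CD163* and *MRC1* were the steadiest members. *CD163* encodes the scavenger receptor that takes up haemoglobin bound to haptoglobin and that the porcine reproductive and respiratory syndrome virus uses to enter macrophages (chr5:63300200-63334497, plus strand). It stood at 8.75, 7.16 and 7.37 FPKM in ZD2, ZD3 and ZD12 and at 6.04, 7.48 and 9.33 FPKM in ZD5, ZD7 and ZD8, a coefficient of variation of 15.4% over the 6 ovaries. *MRC1* encodes the mannose receptor CD206, an endocytic receptor of tissue macrophages (chr10:44107926-44226734, plus strand). It stood at 15.8, 13.9 and 14.7 FPKM in the SLS ovaries and at 9.34, 14.7 and 14.2 FPKM in ZD5, ZD7 and ZD8, a coefficient of variation of 16.4%. For both genes ZD5 was the lowest ovary, and for *MRC1* the other 5 lay within 13.9 to 15.8 FPKM, ZD8 among them. The ratio of *MRC1* to *CD163* kept to 1.52 to 1.99 in all 6 ovaries. The difference LLS minus SLS was -0.04 for *CD163* (SE 0.27, 95% interval -0.65 to 0.58, limma adjusted p = 0.999) and -0.22 for *MRC1* (SE 0.27, 95% interval -0.84 to 0.39, limma adjusted p = 0.999). Without ZD8 the differences were -0.18 and -0.31, and without ZD5 that of *MRC1* was -0.030.

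*CSF1R* and *CD68* varied more. *CSF1R* encodes the receptor for the growth factors CSF1 and IL34, on which macrophages depend to develop and survive (chr2:151102138-151130311, minus strand). Its level was 13.1, 5.11 and 10.6 FPKM in ZD2, ZD3 and ZD12 and 6.89, 10.2 and 15.9 FPKM in ZD5, ZD7 and ZD8. *CD68* encodes a heavily glycosylated protein of the lysosome membrane (chr12:52874754-52877256, plus strand). Its level was 3.50, 1.45 and 2.53 FPKM in the SLS ovaries and 2.56, 1.39 and 5.004 FPKM in ZD5, ZD7 and ZD8. ZD8 was highest and ZD2 second for both genes, and ZD3 was low for both. Each group spanned more than the distance between the means of the groups. LLS minus SLS was 0.19 for *CSF1R* (SE 0.41, 95% interval -0.75 to 1.14, limma adjusted p = 0.999) and 0.13 for *CD68* (SE 0.41, 95% interval -0.80 to 1.07, limma adjusted p = 0.999), and both turned to lower in LLS without ZD8, at -0.09 and -0.21.

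*CD14* was the member that was lowest in ZD8. It encodes the co-receptor that hands bacterial lipopolysaccharide to TLR4 and its partner MD-2, and monocytes carry much of it (chr2:142348036-142349686, minus strand). Its level was 20.6, 12.4 and 12.6 FPKM in ZD2, ZD3 and ZD12 and 15.2, 18.1 and 4.34 FPKM in ZD5, ZD7 and ZD8. ZD8, with 220 reads against 1011 to 1969, was 2.87 times below the lowest of the other 5. It was the lowest ovary for *CD14* under each of the other scalings tried as well. The ratio of *CD14* to *CD163* was 1.70 to 2.51 in those 5 ovaries and 0.465 in ZD8. LLS minus SLS was -0.42 (SE 0.49, 95% interval -1.54 to 0.71, limma adjusted p = 0.999) and 0.15 without ZD8. The luteal and endothelial sums given above were low in the same library, and their part in the level of *CD14* was not tested.

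Among the T cell genes, *CD3E* and *CD2* carried the widest range. *CD3E* encodes the epsilon chain of CD3, the signalling part of the T cell receptor (chr9:45619730-45633972, plus strand). Its level was 1.11, 0.408 and 1.10 FPKM in ZD2, ZD3 and ZD12 and 0.381, 1.16 and 3.35 FPKM in ZD5, ZD7 and ZD8, an 8.79-fold range. *CD2* encodes an adhesion receptor of T and natural killer cells (chr4:103963802-103976971, minus strand). Its level was 1.35, 1.85 and 1.68 FPKM in the SLS ovaries and 0.526, 2.07 and 6.66 FPKM in ZD5, ZD7 and ZD8, a 12.7-fold range. Both genes were lowest in ZD5 and highest in ZD8, so that the LLS group held both ends of the range. ZD8 was 2.88 times the highest of the other 5 for *CD3E* and 3.22 times for *CD2*. The depth behind these levels was small, with 26 to 133 reads per library for *CD3E* and 31 to 220 for *CD2*.

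Neither gene separated the groups. For *CD3E* LLS minus SLS was 0.35 (SE 0.44, 95% interval -0.66 to 1.36, limma adjusted p = 0.999) and 0.33 for *CD2* (SE 0.54, 95% interval -0.90 to 1.56, limma adjusted p = 0.999). Without ZD8 the differences were -0.09 and -0.27.

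*CD4*, the co-receptor of helper T cells for class II antigen (chr5:63892129-63918547, minus strand), was the member whose groups did not overlap. Its level was 0.760, 0.385 and 0.333 FPKM in ZD2, ZD3 and ZD12 and 0.991, 1.17 and 1.12 FPKM in ZD5, ZD7 and ZD8. The group means were 0.493 ± 0.233 FPKM in SLS and 1.10 ± 0.0938 FPKM in LLS (SD, n = 3 each), from 54 to 142 and from 111 to 219 reads. Of all 23564 genes above 0, 557 had every LLS ovary above every SLS ovary (2.36%), and *CD4* was 1 of the 10 members. *CD4* reached 1 FPKM in too few libraries for the main test, and in the fit with no filter LLS minus SLS was 0.50 (SE 0.18, 95% interval 0.06 to 0.94, limma unadjusted p = 0.033, adjusted p = 0.993). In that fit it did not pass the adjusted threshold, and the exact two-sided permutation p was 0.1, the smallest that 3 ovaries against 3 allow. Without ZD8 the difference was 0.49 (limma adjusted p = 0.906). The gap between the groups held under each scaling that divided FPKM by a library factor. Under the median ratio of the tested genes the highest SLS ovary was at 0.796 and the lowest LLS ovary at 0.954. Under the median FPKM of those genes they were at 0.831 and 0.948, and the gap was there under TPM too. It was gone when log2(FPKM + 1) was centred on each library's median, since ZD8 then came to 0.86 and ZD2 to 0.93. For a gene this low, such a shift is not the same as dividing FPKM.

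*CD8A*, the co-receptor of cytotoxic T cells for class I antigen (chr3:57999228-58029768, plus strand), was the lowest member. Its level was 0.239, 0.0988 and 0.134 FPKM in ZD2, ZD3 and ZD12 and 0.171, 0.153 and 0.365 FPKM in ZD5, ZD7 and ZD8. It rested on 39 to 111 reads per library and was below 1 FPKM in all 6. In the fit with no filter LLS minus SLS was 0.09 (SE 0.09, 95% interval -0.13 to 0.30, limma adjusted p = 0.993), and without ZD8 it was 0.0076. The ratio of *CD4* to *CD8A* was 3.19, 3.89 and 2.49 in the SLS ovaries and 5.81, 7.68 and 3.07 in ZD5, ZD7 and ZD8, and these groups overlapped. The ratio of *CD4* to *PTPRC* was 0.197, 0.116 and 0.166 against 0.344, 0.466 and 0.240 and did not overlap (exact two-sided permutation p = 0.1, the smallest possible, and 0.857 after Benjamini-Hochberg adjustment over the 12 ratios tested).

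By litter size, then, 0 of the 10 members were called, where a call asked for a limma adjusted p under 0.05 together with a change of more than 1 on the log2 scale in either direction. Of the 10, 8 passed the filter on low values and were tested. The background was the same, with 0 of 12260 genes called (0%), the smallest adjusted p being 0.860, although 216 genes had an unadjusted p under 0.05. None of the 8 tested members was among those 216. The intervals show what the 6 ovaries could bound. For *CD163*, *MRC1* and *PTPRC* they lay within 1 on either side of 0, whereas those for *CD14*, *CSF1R*, *CD68*, *CD3E* and *CD2* reached past 1. Without ZD8, 20 of 11985 genes were called (0.167%), none of them a member.

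**Figure D2:**
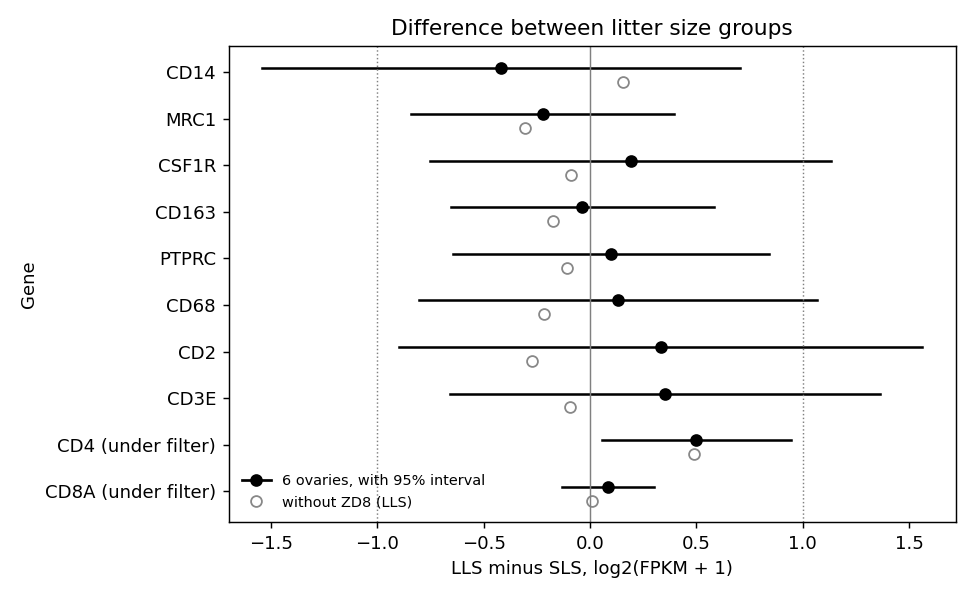
LLS minus SLS on the log2(FPKM + 1) scale for each marker gene, filled points with 95% intervals from all 6 ovaries and open points without ZD8. Dotted lines stand at -1 and 1, and the open point is on the other side of 0 from the filled one for *PTPRC*, *CD68*, *CSF1R*, *CD14*, *CD3E* and *CD2*.

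ZD8 was the highest ovary for 7 of the 10 members, *PTPRC*, *CD68*, *CD163*, *CSF1R*, *CD3E*, *CD8A* and *CD2*, beside the 52.4% of all genes above 0 that were highest there. The margin over the next ovary was small for some, at 1.07 times for *CD163* and 1.21 times for *PTPRC* and for *CSF1R*. It was 1.43 times for *CD68* and 1.53 times for *CD8A*. When FPKM was divided by the median ratio of the tested genes, 4 members stayed highest in ZD8, namely *CD68*, *CD3E*, *CD8A* and *CD2*. Centring log2(FPKM + 1) on the median left *CD68*, *CD3E* and *CD2*, and quantile normalization, run on the 8 tested members, left *CSF1R*, *CD3E* and *CD2*. On the median ratio scale *CD3E* stood at 2.84 in ZD8 against 0.415 to 1.23, and *CD2* at 5.67 against 0.574 to 2.20. The high *CD3E* and *CD2* of ZD8 did not depend on the scaling. *PTPRC*, *CD163* and *CSF1R* lost the highest place when FPKM was divided by the median ratio. *CD68* lost it under quantile normalization only. *CD8A*, which was not in the quantile run, lost it only when log2(FPKM + 1) was centred on the median.

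The summed levels of the lineages differed in whether ZD8 was highest only when *CD14* was counted. The 5 macrophage members together held 61.7, 40.1 and 47.7 FPKM in ZD2, ZD3 and ZD12 and 40.0, 51.9 and 48.8 FPKM in ZD5, ZD7 and ZD8. The 4 T cell members held 3.45, 2.74 and 3.25 FPKM in the SLS ovaries and 2.07, 4.56 and 11.5 FPKM in ZD5, ZD7 and ZD8. The macrophage sum of ZD8 lay inside the range of the other 5, which rested on its low *CD14*. Without *CD14* the sum was 44.4 FPKM in ZD8 and 24.8 to 41.1 FPKM in the other 5. The T cell sum of ZD8 was above them all. The ratio of the sums, *CD14* included, was 11.4 to 19.3 in those 5 and 4.24 in ZD8.

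The other genes of the T cell receptor and its signalling gave the same picture in part. Of 14 such genes in the table, 4 passed the filter, none was called, and 11 were highest in ZD8. This count and those of the lists below stand beside the 52.4% of all genes above 0 that were highest there. The counts below of 7 of 13 and 10 of 19 were near that share, and 8 of 21 was under it. Their sum was 6.17 to 8.79 FPKM in 5 ovaries and 16.7 FPKM in ZD8. *CD3D*, the delta chain, stood at 2.61 FPKM in ZD8 against 0.573 to 1.47, and *LCP2* and *LAT*, adaptors of the receptor, at 2.62 against 1.08 to 1.63 and at 2.76 against 1.16 to 2.05. The other two CD3 complex chains did not follow *CD3E* and *CD3D*. *CD247*, the zeta chain, was at 1.01 FPKM in ZD8, within 0.917 to 1.35. *CD3G*, the gamma chain, named here after its values were seen, was at 0.506 FPKM in ZD8, within 0.298 to 0.626.

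Genes of T cell subsets were low throughout. Of 13 cytotoxic and natural killer genes 1, *NKG7*, passed the filter. It stood at 2.72 FPKM in ZD8, inside the 1.42 to 3.49 FPKM of the other 5. Of the 13, 7 were highest in ZD8, where *GZMA*, a granule protease, stood at 3.07 FPKM against 0.281 to 0.704. Of 6 regulatory T cell genes 5 were highest in ZD8, with *IKZF2* at 2.20 FPKM against 0.505 to 1.22. Of the CD2 ligands, *CD59* stood at 96.7 FPKM in ZD8 against 57.4 to 83.9, and *CD58* kept to 17.0 to 20.9 FPKM in all 6 ovaries.

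Among partners of the macrophage members, the ligands of *CSF1R* spanned a smaller fold range than *CSF1R* itself. The ligand *CSF1* ranged from 5.13 to 9.96 FPKM and *IL34* from 1.01 to 2.40 FPKM. Of the 8 ligands and lineage factors all were tested, none was called, and 6 were highest in ZD8, where *MAF*, a transcription factor that macrophages and T cells share, stood at 64.1 FPKM against 11.4 to 23.9. Of 21 other macrophage genes with a value 15 were tested, none was called, and 8 were highest in ZD8, with a sum of 225 FPKM inside the 173 to 260 FPKM of the other 5. The complement gene *C1QC* stood at 38.2, 15.3 and 33.3 FPKM in the SLS ovaries and at 28.2, 29.9 and 38.0 FPKM in ZD5, ZD7 and ZD8. It was lowest in ZD3, as *CSF1R* was, and so were its partner chains *C1QA* at 6.86 FPKM and *C1QB* at 14.8 FPKM, named after their values were seen, which were both highest in ZD12 at 17.9 and 39.6 FPKM. *GPNMB*, a lysosomal glycoprotein gene, reached 127 FPKM in ZD5 and 83.8 FPKM in ZD7 against 22.6 to 46.7 in the other 4.

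Of the 68 other genes of the blood cell and pathway lists that were tested, 4 had groups that did not overlap, namely *LYVE1*, *HP*, *HCLS1* and *CD58*, beside 5.12% of all 12260 genes tested, counted in either direction. Of the 135 such genes above 0 there were 16, beside 4.77% of all 23564 genes above 0. *LYVE1*, a hyaluronan receptor of some tissue macrophages and of lymphatic vessels, stood at 27.8, 38.0 and 24.1 FPKM in SLS and at 12.9, 19.6 and 7.65 FPKM in LLS (limma unadjusted p = 0.012, adjusted p = 0.999). On the log2(FPKM + 1) scale LLS minus SLS was -1.17, and -0.85 without ZD8 (limma adjusted p = 0.518). Lymphatic endothelial genes summed to 177 to 420 FPKM in 5 ovaries and to 82.1 in ZD8, mostly *CCL21*, at 151 to 375 and 50.3 FPKM. Of the 5 genes 2 were lowest in ZD8, while *PROX1*, *PDPN* and *RELN* were inside the range of the other ovaries. The part of these genes in the level of *LYVE1* was not tested. *HP*, which encodes the haptoglobin that *CD163* binds in complex with haemoglobin, stood at 15.9, 13.6 and 34.2 FPKM in SLS and at 8.98, 6.89 and 0.312 FPKM in LLS (limma unadjusted p = 0.020, adjusted p = 0.999). On the same scale its difference was -2.13, and -1.21 without ZD8 (limma adjusted p = 0.404). *HCLS1*, a signalling adaptor gene of leukocytes, stood at 5.22, 5.27 and 4.31 FPKM in SLS and at 3.17, 4.18 and 3.38 FPKM in LLS. *CD58* stood at 17.0, 17.3 and 17.8 FPKM in SLS and at 20.1, 20.3 and 20.9 FPKM in LLS. After division by the median ratio of the tested genes the groups of *HCLS1* and *CD58* overlapped, and those of *LYVE1* and *HP* did not. None of these genes passed the adjusted threshold.

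In the pathway of *CD14*, *LY96* and *TICAM1* were lowest in ZD8 and 2 genes were highest there. Of its 9 genes 8 were tested and none was called, and *LBP*, which loads lipopolysaccharide onto CD14, was at 0 reads in all 6 libraries. *LY96*, which encodes MD-2, was lowest in ZD8 with 4.88 FPKM against 10.1 to 21.0, as *CD14* was. *TICAM1*, which encodes the adaptor TRIF, stood at 2.04 FPKM in ZD8 against 3.06 to 4.44. *TLR4* itself stood at 3.35 FPKM in ZD8, inside the 1.70 to 3.45 FPKM of the other 5, and *MYD88* at 15.1, inside 15.0 to 23.6. *TLR4* is named here after its values were seen.

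Of 19 other leukocyte genes 16 were tested, none was called, and 10 were highest in ZD8. The sum, led by *LAPTM5* and *ARHGDIB*, was 105 FPKM in ZD8, inside the 86.8 to 149 of the other 5. Those leading genes were themselves lowest in ZD8, *LAPTM5* at 29.7 FPKM against 32.4 to 57.2 and *ARHGDIB* at 14.4 FPKM against 20.4 to 33.0. The high *PTPRC* of ZD8 was thus not shared by the most abundant genes of its list.

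Other blood cells could add to these levels. Neutrophil genes summed to 1.17 to 2.86 FPKM in 5 ovaries and 5.24 in ZD8, with *MPO* and *ELANE* at 0 in all 6. In ZD8 the sum was mostly *S100A8* at 3.61 FPKM, while *S100A9* and *CXCR2* were lowest there at 0.0831 and 0 FPKM. Mast cell genes summed to 0.511 to 2.08 and 3.41, dendritic cell genes to 0.533 to 1.59 and 2.72, and eosinophil genes to at most 0.222. B and plasma cell genes summed to between 2.24 and 4.801 in 5 ovaries and to 15.1 FPKM, of which *JCHAIN* was 7.40 and *MZB1* 5.02 in ZD8, while *MS4A1*, the defining B cell gene CD20, was at 0.0911 there. Of these 11 genes 7 were highest in ZD8. Red cell genes, a measure of blood left in the tissue, summed to 320 FPKM in ZD2, where *CD14* and *MRC1* were highest, and to 28.9 in ZD8, against 53.8 to 161 in the remaining 4. The part of these cells in the members' levels was not tested.

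**Figure D3:**
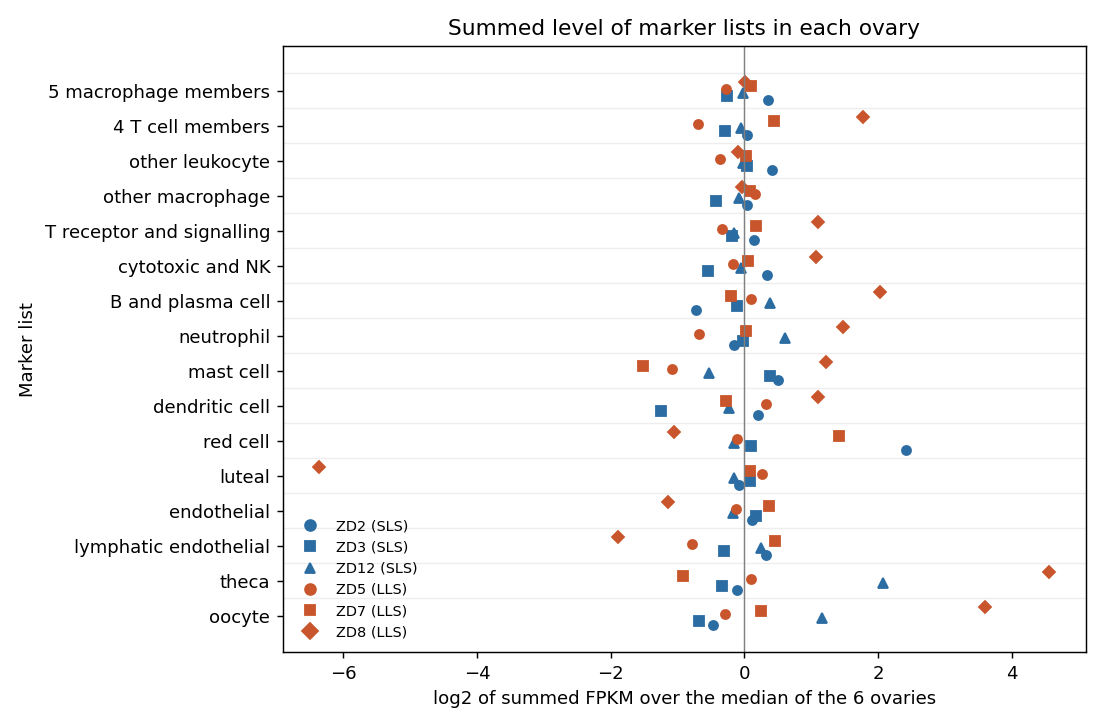
Summed FPKM of each marker list in each ovary, as the log2 of its ratio to the median of the 6 ovaries (blue SLS, orange LLS). ZD8, the orange diamond, is far left for luteal genes (124 FPKM) and right for the T cell members (11.5 FPKM), B and plasma cell, theca and oocyte genes, and it is inside the other 5 for both macrophage lists.

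The tested genes nearest in pattern to *CSF1R* and *CD3E* were not markers of leukocytes alone. Likeness was the root mean square difference over the 6 ovaries between profiles of log2(FPKM + 1), each centred on its own mean, among 12252 genes outside the members. For *CSF1R* the nearest were *SLC2A4RG* at 0.089, *IL17RC* at 0.094 and *RNASET2* at 0.111, where the median gene stood at 0.556. For *CD3E* they were *MDK* at 0.055, *THY1* at 0.072 and *PACS1* at 0.086, where the median gene stood at 0.551. *MDK*, which encodes the growth factor midkine, ran from 27.0 FPKM in ZD5 to 90.3 FPKM in ZD8. The scale understates the spread of *CD3E*, which ran from 0.381 to 3.35 FPKM, an 8.79-fold range. Its nearest genes were more abundant and had a smaller fold range, so their likeness is not that of fold changes. Among the members themselves, the closest pairs were *CD163* and *CD8A* at 0.124 and *CD163* and *MRC1* at 0.150, and the scale understates the spread of a gene as low as *CD8A*.

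The small RNA libraries of the same ovaries gave a second reading of blood cells. The miRNAs miR-142 and miR-223 are made mostly in cells of the blood lineage, miR-223 above all in myeloid cells, and miR-150 in mature lymphocytes, while miR-155 and miR-146 rise when leukocytes are activated. Their mature sequences, as the table gives them, are shown 5′ to 3′ with the seed (bases 2 to 8) in capitals, because the seed decides which arms are read as 1 family.

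miR-142-5p: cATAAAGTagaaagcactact
miR-142-3p: tGTAGTGTttcctactttatgg
miR-223: tGTCAGTTtgtcaaatacccc
miR-150: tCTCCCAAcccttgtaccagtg
miR-155-5p: tTAATGCTaattgtgatagggg
miR-146a-5p: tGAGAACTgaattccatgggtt
miR-146b: tGAGAACTgaattccataggc

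The 2 miR-146 miRNAs share the seed GAGAACT and the other 5 have seeds of their own. In RPM (reads scaled to library size, with no length), miR-142-5p stood at 1434, 632 and 165 in ZD2, ZD3 and ZD12 and at 430, 498 and 309 in ZD5, ZD7 and ZD8. Its partner arm miR-142-3p stood at 968, 497 and 181 RPM in the SLS ovaries and at 387, 462 and 176 RPM in ZD5, ZD7 and ZD8. Both arms were highest in ZD2 and low in ZD12 and ZD8, and *PTPRC* was likewise lowest in ZD12 but highest in ZD8. LLS minus SLS was -0.39 for miR-142-5p (SE 0.72, 95% interval -2.04 to 1.26) and -0.49 for miR-142-3p (SE 0.65, 95% interval -1.99 to 1.01) on the log2(RPM + 1) scale, with limma adjusted p = 0.997 for both.

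The myeloid miR-223 stood at 47.8, 156 and 30.3 RPM in the SLS ovaries and at 43.3, 33.8 and 12.9 RPM in ZD5, ZD7 and ZD8. It was lowest in ZD8, as *CD14* was, and highest in ZD3, where *CD14* was among the low ovaries. The lymphocyte miR-150 stood at 41.6, 95.5 and 70.5 RPM against 97.2, 64.2 and 94.1 RPM, so the ovary with the highest *CD3E* and *CD2* was not its highest. miR-155-5p kept to 438 to 829 RPM in all 6 libraries, miR-146a-5p to 11.5 to 26.4 and miR-146b to 2.88 to 25.8. miR-146b was low in the libraries of ZD12 and ZD8, at 3.75 and 2.88 RPM, where miR-146a-5p, which shares its seed, was high at 25.9 and 26.4 RPM. Between the groups, LLS minus SLS was -1.16 for miR-223 (SE 0.72, 95% interval -2.81 to 0.49, limma adjusted p = 0.997), 0.35 for miR-150, 0.10 for miR-155-5p, 0.15 for miR-146a-5p and 0.01 for miR-146b, and the groups overlapped for all 7. Without ZD8 the difference was -0.66 for miR-223, and without ZD3 it was -0.49. Without ZD8 it was -0.20 for miR-142-5p, -0.068 for miR-142-3p, 0.27 for miR-150, 0.21 for miR-155-5p, -0.12 for miR-146a-5p and 0.90 for miR-146b. Over all miRNAs 0 of 353 tested were called (0%), and by limma 0 had an unadjusted p under 0.05. The arms miR-155-3p and miR-146a-3p were too low to be tested.

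**Figure D4:**
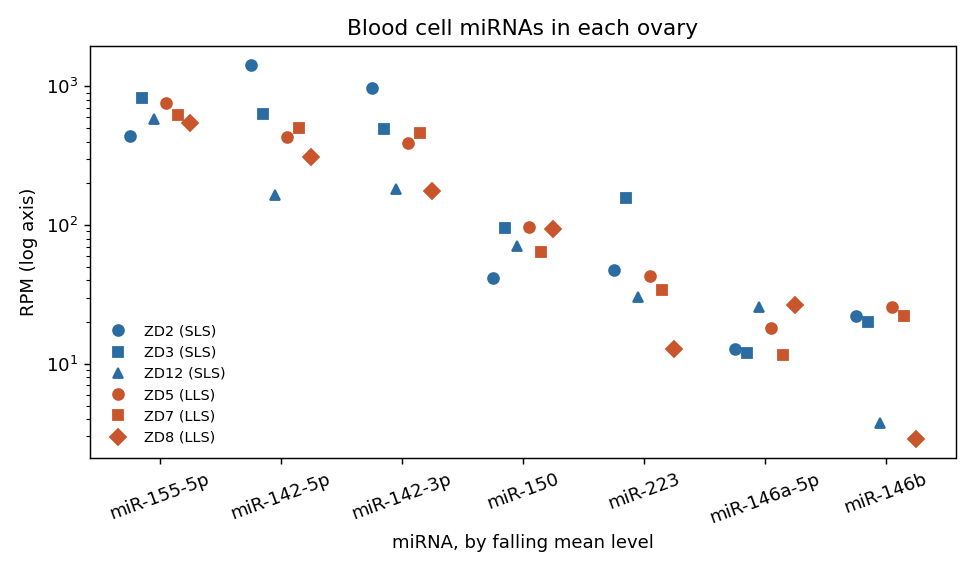
RPM of the 7 tested blood cell miRNAs on a log axis, 1 point per ovary (blue SLS, orange LLS). Both arms of miR-142 are highest in ZD2, miR-223 is lowest in ZD8 (12.9 RPM), and in no miRNA do the 2 groups separate.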

How the data were processed

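Left ovaries of 3 SLS and 3 LLS sows were compared, grouped by the labels. Trimmed reads were mapped by the authors to Sscrofa11.1 with HISAT2, and per gene FPKM values were deposited. The miRNA columns carry the ovary names and were read as those ovaries. The program that counted reads and its annotation are not given in the sources used here. For miRNAs the authors deposited values that they call TPM but that are RPM, reads scaled to library size with no length. From the deposited FPKM, whole reads came back with the longest RefSeq transcript for 23477 of 23564 genes above 0 (99.6%) and from RPM for 2618 of 2618 values, within 0.001 of a read. The libraries are strand-specific, whether counting used strand is not given in the sources used here, and no annotated gene overlaps a member.

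The members, gene lists and tests were chosen with earlier results of these data known. R 4.3.3 with limma 3.58.1 (trended variance) was run on log2(value + 1). A feature entered if 3 or more libraries held 1 FPKM or RPM or more, with Benjamini-Hochberg adjustment over all features tested. *CD4* and *CD8A* failed this filter and were fitted without it. A fold change on the log2(value + 1) scale understates that of low genes. The script was tested on simulated data. Each sow gave 1 ovary, and depth set a counting error only. From the other lists, the 2 genes with the highest mean and the 2 with the smallest p were named, and 3 genes most like *CSF1R* and *CD3E* each. Summed lists hold the genes found in the table, and lists share a few genes (*LYVE1* marks lymphatic vessels too, *CD48* is in 2 lists). Alternatives were pseudocounts, filters, scalings (TPM, median centring, quantile), variance models, edgeR 4.0.16 and DESeq2 1.42.0 on recovered reads, thresholds and leaving out each ovary. The median ratio scaling, and 2 fits without the filter for *CD4* and *CD8A*, were added after the data were seen. CircRNA junction counts were not analysed here.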

Additional observations from a re-analysis of the deposited data

How the results depend on the processing

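With 3 ovaries a group, the members' intervals reach 1 or more on the log2 scale for *CD14*, *CSF1R*, *CD68*, *CD3E* and *CD2*, and levels of *CD3E*, *CD8A* and *CD2* rest on few reads. No member was called under any alternative run. The number of genes called was 0 in the main test, 13 with array weights, 17 with DESeq2 on recovered reads, 99 with an unadjusted p under 0.05 and the fold change, and 0 to 20 with an ovary left out, 20 being the count without ZD8 (LLS replicate 3). It was 0 with edgeR and under the other settings, where between 210 and 416 genes had an unadjusted p under 0.05 with all 6 ovaries. Array weights turned the differences of *CD68* (-0.27), *CSF1R* (-0.23), *CD14* (0.10), *CD3E* (-0.16), *CD2* (-0.21) and miR-155-5p (-0.0083), and DESeq2 that of *PTPRC* (-0.028); the cause was not tested. With an ovary left out, the differences ran from -0.11 to 0.24 for *PTPRC*, -0.21 to 0.45 for *CD68*, -0.18 to 0.10 for *CD163*, -0.16 to 0.46 for *CSF1R*, -0.77 to 0.15 for *CD14*, -0.093 to 0.73 for *CD3E* and -0.27 to 0.89 for *CD2*. They ran from -0.73 to 0.90 for miR-146b, -0.12 to 0.34 for miR-155-5p, -1.23 to 0.33 for miR-142-5p, -1.13 to 0.073 for miR-142-3p and -0.12 to 0.49 for miR-146a-5p. *MRC1* (-0.33 to -0.030, the smallest without ZD5), *CD4* (0.42 to 0.62), *CD8A* (0.0076 without ZD8 to 0.14), miR-150 (0.029 without ZD2 to 0.62) and miR-223 (-1.66 to -0.49, the smallest without ZD3) kept their direction in every setting run, although all but *CD4* moved by over 1.5 times with an ovary left out. *CD4* moved by over 1.5 times with other settings: it differed by 0.50 in the fit with no filter, by 1.08 there with a pseudocount of 0.1, by 1.09 with edgeR and by 1.06 with DESeq2, at adjusted p of at least 0.906 over its alternatives. The number of members highest in ZD8 was 7 in FPKM, 7 after rescaling to an equal sum, 4 after division by the median ratio and 3 after median centring. It was 3 of the 8 tested members after quantile normalization. The count of miRNAs called was 0 in every setting run. No paired analysis was possible because the numbers in the sow names pair no ovaries across groups.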
